A study of Mus musculus with 6 samples.

Results

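The genes described here are the chemokines and chemokine receptors measured in biliary epithelial cells of the mouse liver, chosen by gene symbol alone: every row of the expression table named as a Ccl, Cxcl, Cx3cl or Xcl ligand, or as a Ccr, Cxcr, Cx3cr or atypical (Ackr) receptor. The rule found 43 genes of the 25302 rows, 29 ligands and 14 receptors. The samples were 3 labelled Control, whose genotype was Sox9fl/fl (the gene of the transcription factor Sox9 flanked by loxP sites, with no Cre), and 3 labelled Sox9cKO, whose genotype was Sox9fl/fl:AlbCre+/-. AlbCre is a Cre recombinase driven by the albumin promoter, which is active in hepatocytes and in the fetal liver precursors that also give rise to bile duct cells, so recombination is not limited to the biliary cells that were sequenced. All 6 samples carried the floxed alleles, and age, sex and strain were not given in the sources used here. The labels do not say whether the samples of a group came from separate animals, so the p-values measure the spread between these samples.

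Chemokines are small secreted or membrane-bound proteins that direct the movement of leukocytes by binding receptors coupled to G proteins. They are grouped by the spacing of their first cysteines into CC, CXC, CX3C and XC ligands. CXC ligands that carry a glutamate-leucine-arginine (ELR) motif before the cysteines attract neutrophils through Cxcr2, while Cxcl9, Cxcl10 and Cxcl11 are induced by interferons and attract T cells through Cxcr3. Atypical receptors bind chemokines without G protein signalling and remove or redistribute them. Bile duct epithelium is known as a source of chemokines in inflamed liver.

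All levels are normalized read counts, called normalized reads below: the reads of a gene over the size factor of its library. Values in a row follow the replicate numbers, 1 then 2 then 3. Samples had between 11883496 and 16191990 reads on genes. Sox9 itself was at 6211, 6043 and 6293 normalized reads in Control and at 3363, 3165 and 3340 in Sox9cKO, so every library followed its label. The biliary markers were well represented, with a sum over 7 genes of 69875 to 108902 in Control and 58427 to 88270 in Sox9cKO. The sum over 10 markers of endothelial cells, which line blood and lymph vessels, varied far more between samples of a group than between groups. It was 10312, 32130 and 1461 in Control and 25205, 32722 and 5323 in Sox9cKO. Of these markers only Vwf did not overlap, at 101 to 189 in Control and 190 to 268 in Sox9cKO. Limma did not call Vwf (adjusted p 0.208), but did with the replicate number as a block (adjusted p 0.0420). Vwf was the 1 of 10 called with the block, against 8.05% of all genes tested. The sum over 8 hepatocyte markers was 21078 to 33267 in Control and 40568 to 70298 in Sox9cKO, without overlap, but its members differed. Apob was at 2241 to 3312 in Control and 16585 to 32564 in Sox9cKO and rose, as did Fgb and Tat (limma, 3 of 8 called). Alb, at 17384 to 27683 and 21399 to 35363, overlapped between the groups, as did Ttr, Cyp2e1, Apoa1 and Cps1, and Ttr had the lower mean in Sox9cKO. Leukocyte markers were scarce: 5 pan-leukocyte genes summed to 44.9 to 117 normalized reads in Control and 27.2 to 68.6 in Sox9cKO. The 4 of 9 T, NK and B cell markers in the table summed to 64.7 to 129 and 45.4 to 54.3, the 2 of 6 neutrophil markers in the table to 11.8 to 23.0 and 5.66 to 8.95, and the 5 erythroid markers to 15.0 to 72.4 and 7.92 to 53.9. The 8 mesenchymal markers summed to 2173 to 2792 in Control and 2291 to 4723 in Sox9cKO. Xist, expressed from the inactive X chromosome of females, was at 31917 and 32279 in Control replicates 1 and 3 and at 27852 in Sox9cKO replicate 1, and at 10.2 or less in the other 3 samples, in which the Y-linked gene Ddx3y was at 2256 to 2323.

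The biliary cell samples of both genotypes held the same few chemokines at high levels. They also held endothelial and hepatocyte transcripts, and which cells the chemokine reads came from was not tested. Cxcl1, Cxcl2, Cxcl16 and Cxcl5 together took 84.5% to 92.3% of the family's normalized reads in Control and 84.5% to 88.2% in Sox9cKO. The family as a whole summed to 24636, 36919 and 35763 normalized reads in Control and to 40005, 48192.5 and 36784 in Sox9cKO. These sums were 0.181% to 0.272% of all normalized reads of a sample in Control and 0.252% to 0.338% in Sox9cKO. The lowest Sox9cKO sum lay just below the highest Control sum, so the groups overlapped. Per kilobase of transcript, the group mean of Cxcl1 was 14624 normalized reads in Control and 16419 in Sox9cKO, and that of Cxcl2 was 3407 and 4130. The next genes on this scale stood in a different order in the 2 groups. In Control, Cxcl16 (2083) was followed by Cxcl5 (1732), Cxcl10 (1014), Cxcl3 (342), Cx3cl1 (212), Ccl25 (199) and Ccl2 (112). In Sox9cKO, Cxcl5 (3572) was followed by Cxcl16 (2553), Ccl2 (1338), Cxcl3 (881), Cxcl10 (771), Cx3cl1 (234) and Ccl25 (219.96). Lengths were those of the longest protein-coding transcript, so the order of genes with close values depends on which transcript is present.

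**Figure D1:**
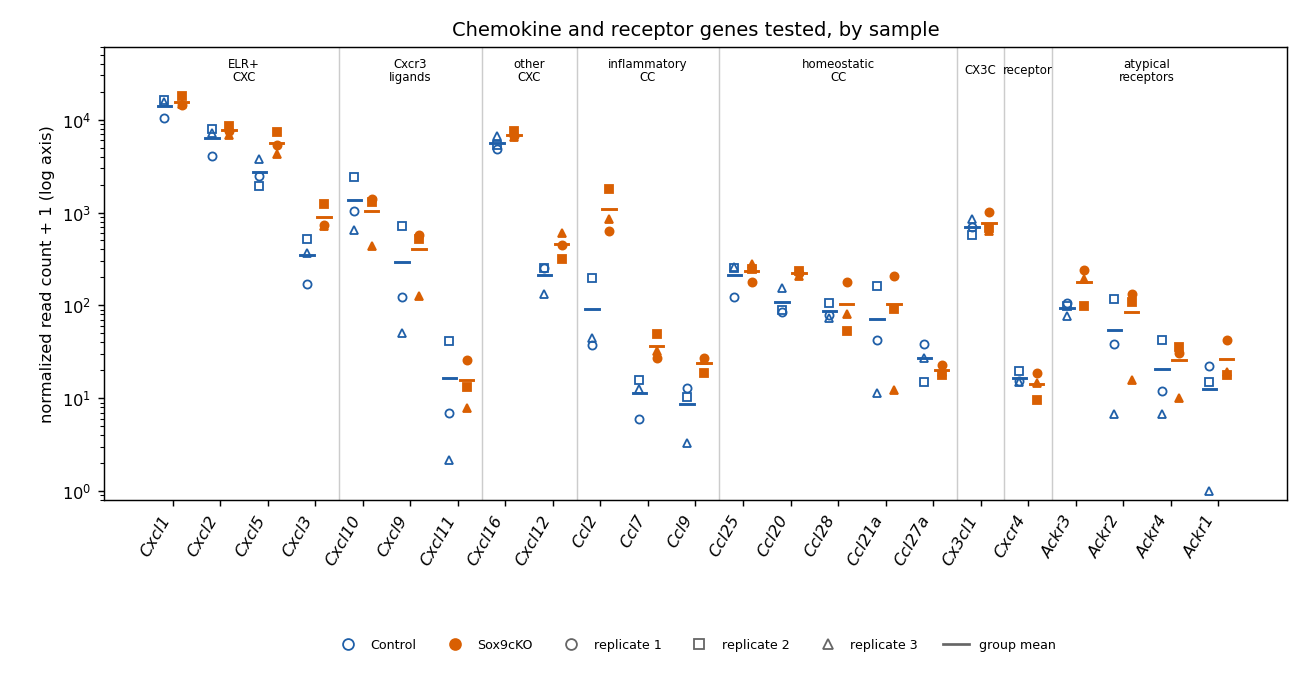
Normalized read count plus 1 (log axis) of the 23 chemokine and receptor genes that were tested, in each Control (open blue) and Sox9cKO (filled orange) sample, with the replicate number as the symbol and the group mean as a bar. Cxcl1 lies at 10326.5 or above in all 6 samples, and the Ccl2 values of Sox9cKO, 624 to 1785, lie above those of Control, 36.1 to 194.

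Differences between the genotypes were tested where the 6 samples averaged 10 or more normalized reads, by limma on log2(value + 1) with Benjamini-Hochberg adjustment over all 17153 genes that passed. The test could be made for 23 of the 43 genes, 18 ligands and 5 receptors. Ccl2 alone had an adjusted p below 0.05, and it was higher in Sox9cKO (1 of 23, against 2.97% of all genes tested and 2.03% called as higher). Same-numbered samples of the genotypes deviated together, least for replicate 1, but the labels do not say what they share. In replicate 3 Xist was high in Control and not in Sox9cKO, so a block by number did not hold sex constant. A limma fit that took the replicate number as a block called 4 of the 23, namely Ccl2, Cxcl3, Ccl7 and Ccl20, against 8.05% of all genes tested. All 4 were higher in Sox9cKO, as were 5.06% of all genes tested. At an unadjusted p below 0.05 limma without the block gave 8 of the 23, against 17.8% of all genes tested. Tested with edgeR's quasi-likelihood method, 0 of the 23 were called (8 at an unadjusted p below 0.05), against 2.86% of all genes tested and 1.82% called as higher. With edgeR and the block 3 were called, all higher (Ccl2, Ccl7 and Cxcl3), against 6.76% and 3.87%. DESeq2 called 5, all higher (Ccl2, Ccl20, Cxcl12, Cxcl3 and Cxcl5), against 7.08% and 4.2%. Of the 23 genes, 20 had a fold change above 0, with a median log2 fold change of 0.71, against 54.2% and a median of 0.036 over all genes tested. Without a filter on low values, 26 of the 43 had a fold change above 0 and the median was 0.19, against 45.4% and -0.051 over all rows. These counts describe the genes that passed the filter and are not a test of the family. In 7 of the 23, every Sox9cKO sample lay above every Control sample (Ccl2, Ccl7, Ccl9, Ccl20, Cxcl3, Cxcl5 and Cxcl12), which held for 13.4% of all genes tested. In 9 of the 23 the Sox9cKO value was the higher in all 3 same-numbered pairs, against 26.7% of all genes tested. No tested member had all Sox9cKO samples below all Control samples, which held for 10.8% of all genes tested.

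**Figure D2:**
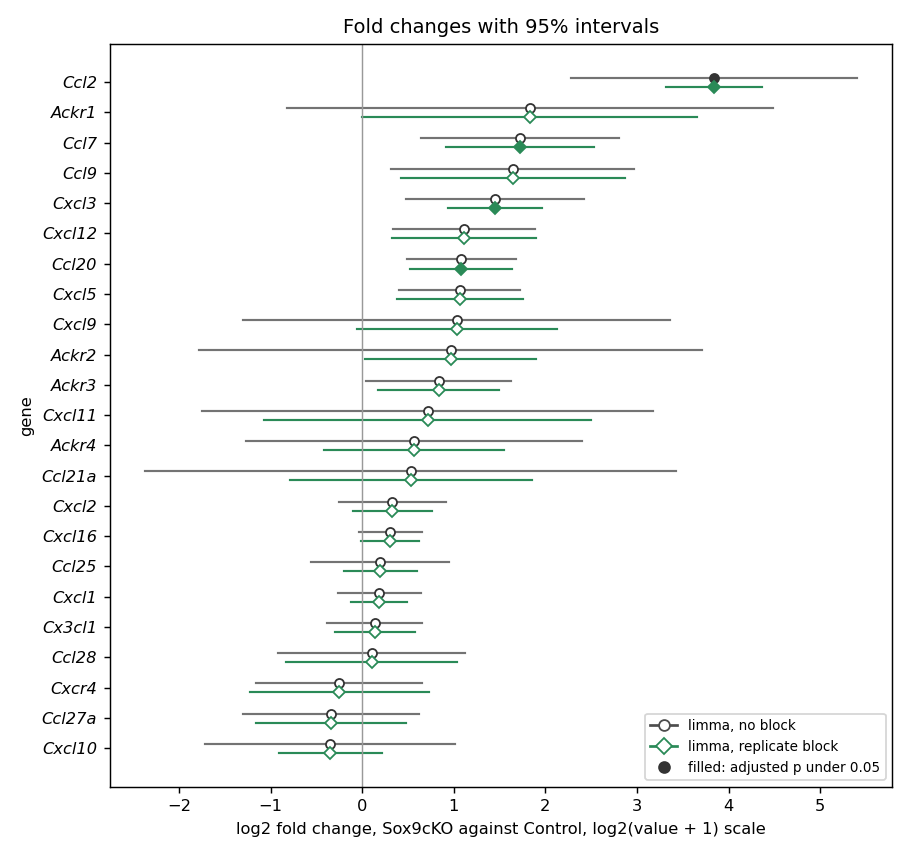
Log2 fold change of Sox9cKO against Control on the log2(value + 1) scale for the 23 tested genes, with 95% intervals from limma without (dark circles) and with (green diamonds) the replicate block, and filled symbols for an adjusted p below 0.05. Ccl2 stands at 3.84, and its standard error goes from 0.66 to 0.22 with the block.

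Among the inflammatory CC ligands, Ccl2, the main attractant of monocytes through Ccr2, rose in Sox9cKO. Its level (ENSMUSG00000035385) was 36.1, 194 and 43.8 normalized reads in Control (mean 91.3 ± 89.0, SD, n = 3) and 624, 1785 and 854 in Sox9cKO (mean 1088 ± 615, SD, n = 3). Replicate 2 was the highest sample in both genotypes, and the lowest Sox9cKO value was above the highest Control value. The same-numbered ratios of Sox9cKO to Control were 17.3, 9.20 and 19.5. On the log2 scale the difference was 3.84, with SE 0.66 and a Benjamini-Hochberg adjusted p of 0.0297 in limma, and with SE 0.22 and an adjusted p of 0.000755 once the replicate block was added. The call without the block was lost in 5 of the 6 fits that left out 1 sample, all but the fit without Control replicate 2, with adjusted p-values of 0.0606 to 0.118 in those 5 and log2 fold changes of 3.40 to 4.59 in all 6. It was also missed by edgeR's quasi-likelihood test without the block (log2 fold change 3.52, adjusted p 0.0576).

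Ccl7, which neighbours Ccl2 directly on chromosome 11 and also acts on monocytes through Ccr2, was far less abundant. Its values were 5.04, 14.8 and 11.5 normalized reads in Control (mean 10.5 ± 4.99, SD, n = 3) and 25.9, 48.2 and 31.7 in Sox9cKO (mean 35.3 ± 11.6, SD, n = 3). The samples kept the same order in both genotypes, replicate 2 highest and replicate 1 lowest, and the groups did not overlap. At 1.72 on the log2 scale (SE 0.46) it missed the threshold without the block (adjusted p 0.109 in limma) and passed it with the block (standard error 0.34, adjusted p 0.0301). Ccl11, an eosinophil attractant and the next gene in the cluster, had at most 3 reads in 5 samples and 15 in Sox9cKO replicate 1.

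Ccl9, a myeloid attractant from another CC cluster on the same chromosome, was at 11.8, 9.28 and 2.30 normalized reads in Control and at 25.9, 17.96 and 24.9 in Sox9cKO. The groups did not overlap, but the log2 fold change of 1.64 (standard error 0.56) was not called without or with the block (limma, adjusted p 0.191 and 0.102). Its neighbours Ccl5, Ccl6, Ccl3 and Ccl4 were below the filter, with at most 14 reads in any sample. Ccl5, a T cell attractant, was at 3.36 to 8.35 normalized reads in Control and 6.96 to 13.2 in Sox9cKO, and the groups overlapped.

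Macrophages and other myeloid cells are also sources of Ccl2, Ccl7 and Ccl9, and their markers did not move together. The sum over 8 macrophage markers was 990 to 1121 normalized reads in Control and 1531 to 1802 in Sox9cKO, and Csf1r alone gave most of it, at 705 to 797 and 1266 to 1638, and was called (log2 fold change 0.92; adjusted p 0.0142 in limma). Cd68 lay the other way, at 150 to 176 in Control and 113 to 135 in Sox9cKO, and was not called. Adgre1 was at 2.30 to 21.0 and 3.40 to 10.9, Clec4f, a marker of Kupffer cells, at 13.8 to 82.4 and 12.5 to 56.7, and the pan-leukocyte gene Ptprc at 19.6 to 37.0 and 1.13 to 16.9. None of the 8 markers was at 0 in every sample. The part of Csf1r-expressing cells in the result was not tested. With the endothelial sum as a covariate, Ccl2 stood at 3.47 on the log2 scale (adjusted p 0.0180 in limma), and with Xist as a covariate 3.30 (adjusted p 0.0181). The part of the hepatocyte markers, of which Apob, Fgb and Tat were higher in every Sox9cKO sample than in any Control sample, was not tested.

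The ELR-bearing CXC ligands Cxcl5, Cxcl3, Cxcl1 and Cxcl2 lie in a single cluster on chromosome 5, between Rassf6 and Mthfd2l, together with Ppbp, Pf4 and Cxcl15. The cluster held both the most abundant chemokines of these samples and members that differed by more than 2-fold between the group means. Cxcl3 (ENSMUSG00000029379), a ligand of Cxcr2, was at 170, 511 and 362 normalized reads in Control (mean 348 ± 171, SD, n = 3) and at 736, 1244 and 706 in Sox9cKO (mean 895 ± 302, SD, n = 3). Replicate 2 was again the highest in each genotype, and all Sox9cKO values exceeded all Control values. Its log2 fold change of 1.45 had SE 0.41 without the block (adjusted p 0.126 in limma) and SE 0.22 with it (adjusted p 0.0122).

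Cxcl5 is another Cxcr2 ligand, made by many epithelia. Its values were 2465, 1935 and 3785 in Control (mean 2728 ± 952, SD, n = 3) and 5272, 7296 and 4312 in Sox9cKO (mean 5627 ± 1523, SD, n = 3). The groups did not overlap, although replicate 3 differed little, with a ratio of 1.14 against 2.14 and 3.77 for replicates 1 and 2. The log2 fold change of 1.07 (standard error 0.28) was called neither without nor with the block (limma, adjusted p 0.107 and 0.0717).

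Cxcl1 and Cxcl2, the members with the most reads, overlapped between genotypes. Cxcl1 was at 10326.5, 16099 and 15385 normalized reads in Control and at 14330.5, 17857 and 14756 in Sox9cKO. Control replicate 1 was the low sample, and without it the log2 fold change of Cxcl1 went from 0.19 to -0.015. Cxcl2 was at 4052, 7830 and 7119 in Control and at 7518, 8640 and 6876 in Sox9cKO, with the same low sample. The 95% intervals of the log2 fold change were -0.27 to 0.64 for Cxcl1 and -0.26 to 0.91 for Cxcl2 (limma, adjusted p 0.679 and 0.559). Whether Cxcl3 and Cxcl5 differed more between genotypes than Cxcl1 and Cxcl2 was not tested. Cxcl2 and Cxcl3 share sequence: 6.31% of the 50-base stretches of the Cxcl3 transcript and 3.37% of those of Cxcl2 occur in the other gene, so a small part of their reads could be assigned to either.

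Start regions of 3 genes of the cluster and of Ccl20 are shown because they hold the same letter pattern. Sequences are the 100 bases before the RefSeq transcription start (build GRCm38.p6, the build of the RefSeq table, whereas the submitters' processing notes name GRCm39), written 5′ to 3′ on the gene's strand. Capitals mark matches to a form of the kappa-B pattern bound by NF-kB, searched on both strands: GGG, any 2 bases and TTTCC, or on the opposite strand GGAAA, any 2 bases and CCC.
Cxcl3, chr5:90786001-90786100, plus strand: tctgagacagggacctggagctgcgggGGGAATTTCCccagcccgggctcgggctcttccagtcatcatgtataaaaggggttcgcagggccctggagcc
Cxcl1, chr5:90891145-90891244, plus strand: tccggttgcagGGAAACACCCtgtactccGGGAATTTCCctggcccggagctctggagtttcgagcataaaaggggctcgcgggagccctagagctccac
Cxcl2, chr5:90903799-90903898, plus strand: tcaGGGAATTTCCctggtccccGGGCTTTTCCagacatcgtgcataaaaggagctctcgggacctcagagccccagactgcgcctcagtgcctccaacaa
Ccl20, chr1:83116666-83116765, plus strand: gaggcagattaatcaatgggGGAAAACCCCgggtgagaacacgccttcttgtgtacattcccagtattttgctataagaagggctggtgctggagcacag
The same 10 letters, GGGAATTTCC, begin 73 bases before the start of Cxcl3, 71 before that of Cxcl1 and 97 before that of Cxcl2. Cxcl1 and Cxcl2 hold an additional match each, so the number of matches did not order the genes by their fold change. Ccl20 has its match on the opposite strand, beginning 80 bases before the start. Of the 43 genes, 29 had an entry in the RefSeq promoter table, and 5 of these (17.2%) held a match within the 300 bases from 250 before to 50 after the start, the fifth being Ccl9. Counted the same way, by gene, the share was 1.89% of the 27025 genes of the table, and counted by promoter 1.63% of 32851. Ccl2, Ccl7 and Cxcl5 had no entry in that table, so their start regions were not searched. A match describes the letters and shows neither binding nor a cause.

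Ccl20, the ligand of Ccr6 that attracts dendritic cells and a subset of helper T cells, was the other ligand called with the block. It stood at 84.1, 88.2 and 153 normalized reads in Control (mean 108 ± 38.8, SD, n = 3) and at 224, 235 and 207 in Sox9cKO (mean 222 ± 14.2, SD, n = 3). The Sox9cKO samples lay close together and above all Control samples, of which replicate 3 was the highest. Its log2 fold change of 1.08 had SE 0.25 (adjusted p 0.0779 in limma), and SE 0.23 with the block (adjusted p 0.0399). Without Control replicate 3, the highest Control sample, limma called it also without the block (adjusted p 0.0326). It did so too with the endothelial covariate (1.21 on the log2 scale, adjusted p 0.0345). The other fits that left out 1 sample did not call it (adjusted p 0.137 to 0.250 in limma). Neither did edgeR, without the block (adjusted p 0.108) or with it (adjusted p 0.0545). In all, Ccl20 was called under 4 of 18 alternatives.

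**Figure D3:**
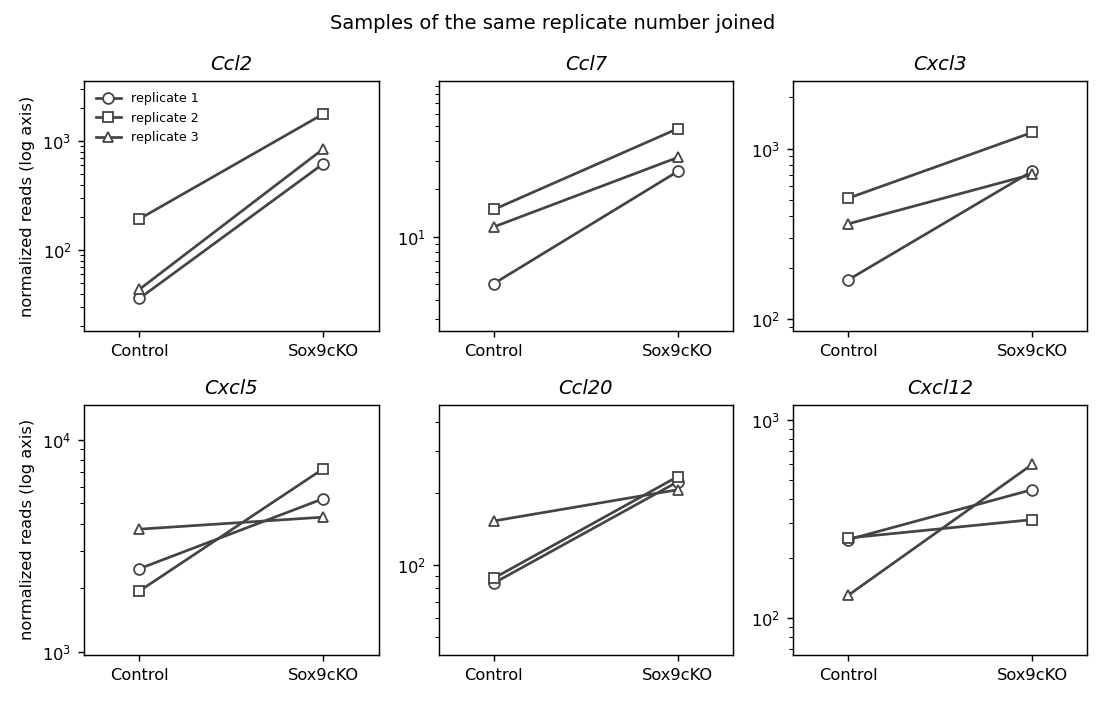
Normalized reads (log axis) of Ccl2, Ccl7, Cxcl3, Cxcl5, Ccl20 and Cxcl12 in Control and Sox9cKO samples, with samples of the same replicate number joined. Every line rises from Control to Sox9cKO. The lines of Ccl2 and of Ccl7 do not cross, whereas lines cross for Cxcl3, Cxcl5, Ccl20 and Cxcl12.

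Cxcl12, a constitutive ligand of Cxcr4 and Ackr3 that retains progenitor cells in their niches, had no overlap between genotypes but was not called. Its values were 249, 253 and 130 normalized reads in Control (mean 211 ± 69.8, SD, n = 3) and 445, 314 and 597 in Sox9cKO (mean 452 ± 142, SD, n = 3). Replicate 3 held both the lowest Control and the highest Sox9cKO value. At SE 0.33 in both fits, the log2 fold change of 1.11 had an adjusted p of 0.138 in limma and of 0.0913 with the block. Stromal and endothelial cells also express Cxcl12. The ranges of their marker sums overlapped between the groups, but the endothelial sum was the higher in Sox9cKO in all 3 same-numbered pairs. With that sum as a covariate Cxcl12 stood at 1.03 on the log2 scale (adjusted p 0.153 in limma), and the part of stromal cells was not tested. DESeq2 called it (adjusted p 0.0265).

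Cxcl16, a membrane-bound chemokine that holds Cxcr6-bearing lymphocytes, was steady across samples. It was at 4834, 5325 and 6704 normalized reads in Control and 6681, 7490 and 6499 in Sox9cKO, and the groups overlapped. The 95% interval of its log2 fold change was -0.04 to 0.65 (limma, adjusted p 0.342). Cx3cl1, the other membrane-bound ligand, was at 694, 567 and 842 in Control and at 1009, 684 and 638 in Sox9cKO. Its interval was -0.38 to 0.65 (limma, adjusted p 0.803), and the sign of its fold change depended on single samples, since it became -0.066 without Sox9cKO replicate 1.

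The mucosal ligands Ccl25, which acts through Ccr9, and Ccl28, which acts through Ccr10, were present at moderate levels. Ccl25 was at 122.7, 253 and 256 normalized reads in Control and 178, 244 and 276 in Sox9cKO, with overlapping groups and a log2 fold change of 0.20 (adjusted p 0.807 in limma). Ccl28 was at 78.2, 106 and 72.6 in Control and 178, 52.0 and 80.4 in Sox9cKO, where replicate 1 was the high sample and replicate 2 the low one. The fold change was 0.10 on the log2 scale (adjusted p 0.936 in limma). Ccl27a was at 13.9 to 37.8 in Control and 17.0 to 21.9 in Sox9cKO, and 66.4% of its 50-base stretches also occur in near-identical copies, so its assignment is uncertain.

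Cxcl17, a ligand of mucosal epithelia, and Cxcl13, a B cell attractant, fell just under the filter, with means of 8.84 and 9.28 normalized reads over the 6 samples. Cxcl17 had 1, 4 and 1 reads in Control and 14, 21 and 12 in Sox9cKO. Without a filter limma called it, at 2.64 on the log2 scale (adjusted p 0.0406). Cxcl13 had 6, 1 and 3 reads in Control and 7, 14 and 23 in Sox9cKO, a difference that was not called (limma without a filter, adjusted p 0.163). Both genes were higher in every Sox9cKO sample than in any Control sample, at read numbers where counting error is large.

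The interferon-inducible ligands differed more between samples of a group than between groups. Cxcl10 was at 1047, 2419 and 650 normalized reads in Control (mean 1372 ± 928, SD, n = 3) and at 1390, 1298 and 439 in Sox9cKO (mean 1043 ± 524, SD, n = 3). Cxcl9 was at 121, 717 and 49.5 in Control and at 578, 515 and 126 in Sox9cKO. Cxcl11 was at 5.88, 39.9 and 1.15 in Control and at 24.9, 12.3 and 6.79 in Sox9cKO. All 3 genes had their highest value in Control replicate 2 and their lowest in a replicate 3 sample. On the log2 scale the differences were -0.35, 1.03 and 0.71, at limma adjusted p-values of 0.810, 0.652 and 0.778, and with edgeR that of Cxcl11 was -0.16. Cxcl10 shares exon sequence with Art3 on the opposite strand, and whether strand was used in counting is not given in the sources used here.

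The samples in which these ligands were high were those in which endothelial markers were high. Control replicate 2 and Sox9cKO replicates 1 and 2 were the 3 highest samples for the endothelial sum, and also for Cxcl9, Cxcl10, Cxcl11, Cxcl2, Ccl21a, Ackr2 and Ackr4. These 7 genes were 30.4% of the 23 tested, and 9.84% of all genes tested had the same 3 highest samples. In bulk RNA, more cells of a type and more RNA per cell cannot be told apart. With the endothelial sum as a covariate, the log2 fold changes became -0.085 for Ackr2, -0.076 for Ackr4, -0.51 for Ccl21a and -0.12 for Cxcl11, each of the opposite sign to the value without it. Of the other three, Cxcl10 went from -0.35 to -0.85 (adjusted p 0.0921 in limma), Cxcl9 from 1.03 to 0.16 and Cxcl2 from 0.33 to 0.30. None of the 7 was called. The 7 were picked by the 3 highest samples of the endothelial sum, so shifts with that sum as a covariate are not independent evidence.

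**Figure D4:**
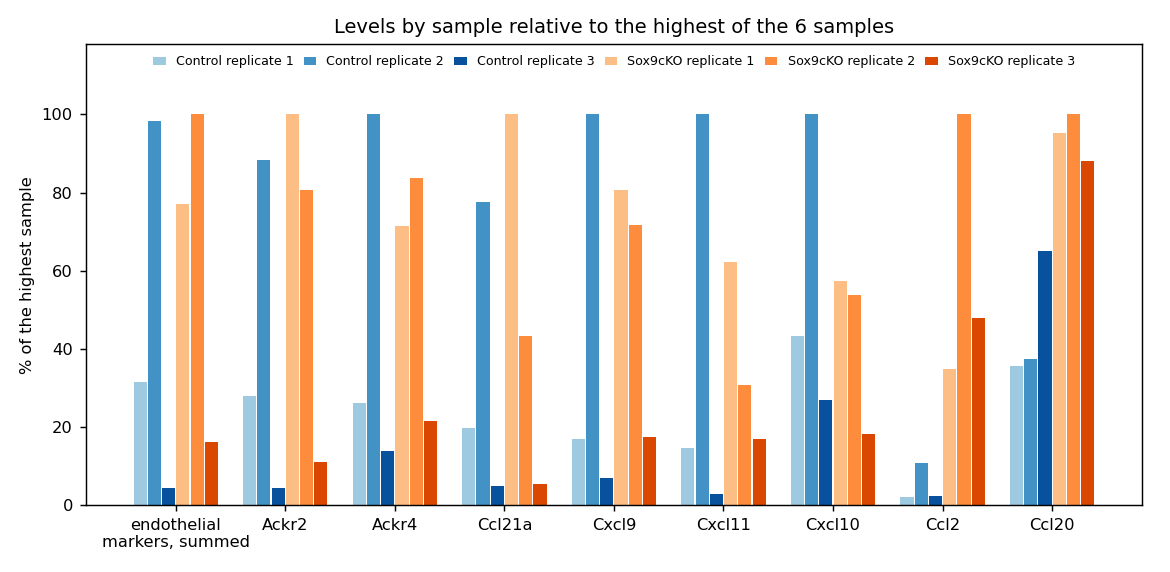
Level in each sample as a percentage of the highest of the 6 samples, for the sum of 10 endothelial markers, 6 chemokine system genes with the same 3 highest samples, and Ccl2 and Ccl20 for comparison. Cxcl2, which also had these 3 highest samples, is not shown. Its samples varied less, from 46.9% to 100%, against 4.46% to 100% for the endothelial sum. Control replicate 2 stands with Sox9cKO replicates 1 and 2 for the endothelial sum (98.2%, 77.0% and 100%), whereas for Ccl2 it is at 10.9%.

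Ccl21a, a ligand of Ccr7 made by lymphatic vessels, was at 41.2, 161 and 10.4 normalized reads in Control and 207, 89.8 and 11.3 in Sox9cKO. Its 2 lowest values came from the replicate 3 samples of both genotypes, as for the endothelial sum. The assignment of its reads is uncertain, since 71.6% of its 50-base stretches occur in near-identical copies such as Ccl21b.

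Among receptors, the atypical ones were the most abundant by the mean over the 6 samples, and none was called. In Control alone, Cxcr4 (mean 15.6) lay above Ackr1 (mean 11.6). Ackr3, which removes Cxcl12, was the highest, at 105, 97.5 and 76.0 normalized reads in Control (mean 92.9 ± 15.1, SD, n = 3) and 239, 98.3 and 190 in Sox9cKO (mean 176 ± 71.3, SD, n = 3). Sox9cKO replicate 2 lay within the Control range, and replicates 1 and 3 above it. Its log2 fold change of 0.83 (SE 0.34) was not called in limma, with adjusted p 0.256 unblocked and 0.118 blocked. Ackr2, a scavenger of inflammatory CC ligands, was at 37.0, 117 and 5.76 in Control and at 132, 107 and 14.7 in Sox9cKO. Ackr4, which takes up Ccl21 and Ccl25, was at 10.9, 41.8 and 5.76 in Control and at 29.8, 35.0 and 9.06 in Sox9cKO. Ackr1, found on venular endothelium and erythroid cells, had 25, 15 and 0 reads in Control and 42, 18 and 16 in Sox9cKO. The log2 fold changes of Ackr2, Ackr4 and Ackr1 were 0.97, 0.56 and 1.83, with limma adjusted p-values of 0.727, 0.763 and 0.459.

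Receptors that signal were close to absent. Cxcr4, the signalling receptor of Cxcl12, was the only one above the filter, at 14.3, 18.6 and 13.8 normalized reads in Control and 17.9, 8.51 and 13.6 in Sox9cKO (limma, log2 fold change -0.25, adjusted p 0.789). Ccr2, the receptor of Ccl2 and Ccl7, had 5, 2 and 3 reads in Control and 0, 2 and 1 in Sox9cKO. Cxcr2, the receptor of the ELR-bearing ligands, had 0, 7 and 4 reads in Control and 2, 1 and 5 in Sox9cKO. The receptors Ccr6, Cxcr3 and Cxcr6, which bind Ccl20, Cxcl9 to Cxcl11 and Cxcl16, were not analysed here. Ccr4 had 3, 2 and 5 reads in Control and 1, 0 and 2 in Sox9cKO, and Ccr7 had 2, 9 and 1 in Control and 0, 3 and 0 in Sox9cKO, with overlapping groups for both. Neither was called in the fit without a filter (limma, adjusted p 0.400 and 0.455). The 6 CC receptors, all below the filter, summed to 25.2, 25.1 and 20.7 normalized reads in Control. In Sox9cKO the sum was 7.96, 15.1 and 5.66, without overlap, and each receptor had the lower mean there. The sum was not tested. Cx3cr1 was the only member lower in every Sox9cKO sample than in any Control sample, at 1.99 to 5.67 against 5.76 to 6.72. Cx3cr1 had 8 or fewer reads and was not called (limma without a filter, adjusted p 0.478).

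Genes around the chemokine system were examined as 4 lists. Of 31 tested genes that transmit signals from chemokine receptors, 1 rose and 1 fell, both regulators that shorten G protein signalling, where limma called 2.97% of all genes tested. Rgs16 was at 42.9, 71.5 and 34.6 normalized reads in Control and at 499, 449 and 252 in Sox9cKO (log2 fold change 2.99 ± 0.35, SE; limma, adjusted p 0.00699). Rgs2 was at 2037, 1714 and 1913 in Control and at 820, 851 and 835 in Sox9cKO (log2 fold change -1.17; limma, adjusted p 0.00383). With the block Stat3, a transcription factor downstream of cytokine receptors, also passed, at -0.46 on the log2 scale (adjusted p 0.0432 in limma). That made 3 of the 31 called with the block, against 8.05% of all genes tested. The median log2 fold change of the list was 0.15, against 0.036 over all genes tested.

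Another list held 29 tested receptors and mediators that induce chemokine genes or, as Tnfaip3 and Zfp36 do, restrain them. Of these 29, 2 rose and none fell in limma without the block. Over all genes tested, 2.03% were called as higher and 2.97% called in all. Tnfrsf1b, a receptor of tumour necrosis factor, was at 630, 658 and 505 normalized reads in Control and at 1356, 2149 and 1328 in Sox9cKO (log2 fold change 1.40; limma, adjusted p 0.0185). Il6ra, the interleukin receptor subunit, was at 111, 114 and 132 in Control and at 209, 298 and 281 in Sox9cKO (log2 fold change 1.12; limma, adjusted p 0.0275). In fits that left out 1 sample, Tnfrsf1b lost its call without Control replicate 1 or 3 (adjusted p 0.0792 and 0.0740), and Il6ra lost its call in all fits but the one without Sox9cKO replicate 1 (adjusted p 0.0725 to 0.127 in limma). With the block limma called 5 of the 29, against 8.05% of all genes tested. They included Tnfaip3, an inhibitor of NF-kB (log2 fold change 0.66, adjusted p 0.0442 in limma with the block). Zfp36, which promotes decay of cytokine transcripts, was also called (log2 fold change -0.61, adjusted p 0.0275 in limma with the block). The list's median log2 fold change was 0.031.

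Of 12 tested genes that display, shed or process chemokines, none was called without the block (limma), and 3 were called with it, all higher in Sox9cKO, against 8.05% of all genes tested, or 5.06% called as higher. Mmp7, a matrix protease of injured epithelia, was at 53.8, 289 and 144 normalized reads in Control and at 534, 1023 and 672 in Sox9cKO (2.44 on the log2 scale; adjusted p 0.0766 in limma unblocked and 0.00416 blocked). Adam10, the protease that sheds Cx3cl1 and Cxcl16 from the cell surface, was at 1545, 1504 and 1414 in Control and at 2321, 2168 and 1930 in Sox9cKO (0.52; limma with block, adjusted p 0.0244). Sdc1, a heparan sulfate proteoglycan that binds chemokines, was at 1390, 930 and 1225 in Control and at 2768, 1509 and 2247 in Sox9cKO (0.86; limma with block, adjusted p 0.00617). The list's median log2 fold change was 0.41.

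Relatives of the family with other symbols gave 5 tested genes of 8, none called without the block (limma), against 2.97% of all genes tested. With the block 1 was called, Rarres2, against 8.05% of all genes tested, or 5.06% called as higher. Rarres2, which encodes the attractant chemerin, was at 42.0, 60.3 and 32.3 normalized reads in Control and at 101, 151 and 102 in Sox9cKO. The difference was 1.40 on the log2 scale (adjusted p 0.0587 in limma unblocked and 0.0116 blocked). Pf4, which lies between Ppbp and Cxcl3 in the CXC cluster, was at 5.76 to 10.9 in Control and 11.3 to 19.9 in Sox9cKO, without overlap and not called (limma, adjusted p 0.341). The list's median log2 fold change was 0.84.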

How the data were processed

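RNA of 3 Control and 3 Sox9cKO samples of biliary epithelial cells was sequenced from stranded total RNA libraries, per the labels' protocols. The values the authors deposited are normalized signal, here read counts over 1 size factor for each library. DESeq2 1.36.0 and the build GRCm39 are named in the submitters' processing notes. The aligner, counter, annotation, use of strand and use of the molecular identifiers are not given in the sources used here. Every value was a whole multiple of its sample's value for 1 read (tolerance 0.001 reads; 100% of values), which gave the reads back, and the factors were those of the median-of-ratios rule. No row had fewer than 10 reads in total.

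Genes with a mean of at least 10 were tested on log2(value + 1) with limma 3.58.1 (R 4.3.3, intensity trend, two-sided), adjusted by Benjamini-Hochberg over all genes, at a threshold of 0.05. The pseudocount understates fold changes of low genes. Same-numbered samples deviated together (correlations over genes of 0.207, 0.472 and 0.542), so the replicate number from the titles was also used as a block. Samples of unlike numbers gave correlations of -0.437 to 0.0476. With each group's mean removed, positive values for same numbers push those of unlike numbers below 0. Alternatives were edgeR 4.0.16 and DESeq2 1.42.0 on the reads, other pseudocounts, filters and scalings, fits leaving out 1 sample and, added after seeing the data, endothelial and Xist covariates. The scripts were tested on simulated data.

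The family, the gene lists, the markers and the naming rule (all genes called without or with the block, the 10 highest members, and up to 3 called genes per list) were chosen with earlier results of these data known. List genes called only with the block, and low or uncalled members of a role, were named beyond this rule. Lengths, overlaps and shared 50-base stretches came from GENCODE M21 (GRCm38), promoters and gene order from RefSeq (GRCm38.p6). Ccl21a, Ccl27a (shared sequence) and genes that overlap others on the opposite strand (among tested members Cxcl10, Cxcl11, Cxcl16, Ccl25, Ccl27a and Ackr4) or the same strand (Ackr1) are uncertain. Some results on single genes are not reported here.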

Additional observations from a re-analysis of the deposited data

How the results depend on the processing

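Ccl2 was the only member called without the block, and it was called under 12 of 18 alternatives. The number of members called was 2 without a filter (Cxcl17 added), 4 with the replicate block, 3 with edgeR and the block, 5 with DESeq2, 0 with edgeR (8 at an unadjusted p below 0.05), 2 with the endothelial covariate, chosen after seeing the data, and 0 to 1 when 1 sample was left out (6 to 9 at an unadjusted p below 0.05 in limma). Over all genes, 510 calls became 1381 with the replicate block, 1160 with edgeR and the block, 1214 with DESeq2 and 199 to 387 when 1 sample was left out (199 without Control replicate 1, 212 without Control replicate 3, 280 without Sox9cKO replicate 3, 334 without Sox9cKO replicate 2). Calls in the 4 lists went from 4 to 12 with the replicate block, 11 with edgeR and the block, 11 with DESeq2, and 2 to 5 when 1 sample was left out (2 without Control replicate 1 or 3). The cause of these shifts was not tested. Among the tested members the block added Cxcl3, Ccl7 and Ccl20 and changed no other call. Sox9 was called under all 18 alternatives.

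Signs turned for members that were never called. Log2 fold changes became -0.16 (edgeR), -0.15 (DESeq2) and -0.12 (endothelial covariate) for Cxcl11, -0.0024 for Ccl28 with quantile normalization, and -0.085, -0.076 and -0.51 for Ackr2, Ackr4 and Ccl21a with the endothelial covariate. Leaving out 1 sample gave ranges of -0.066 to 0.28 for Cx3cl1, -0.48 to 0.016 for Cxcr4, -0.14 to 1.94 for Ackr2, -0.015 to 1.32 for Ackr4, -0.15 to 0.38 for Ccl25, -0.38 to 0.50 for Ccl28, -0.42 to 1.69 for Ccl21a, -0.78 to 0.19 for Cxcl10, -0.27 to 1.85 for Cxcl11 and -0.015 to 0.30 for Cxcl1. At a minimum mean of 50, 7 of the 23 members have no value. Genes with few reads, among them all CC receptors, allow only large differences to be seen.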
